A study of Mus musculus with 31 samples.

Results

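The 41 genes examined here encode the proteins that copy DNA in S phase and the enzymes that supply its deoxynucleotides. They were taken by gene name from a list set by function. No measured value enters that rule, but the list was drawn up with earlier results of these data known. In all, 41 of 41 were found by name among the 46072 gene IDs listed for each library. By role, 11 license or start origins (Orc1, Orc6, Cdc6, Cdt1, Mcm2 to Mcm7 and Mcm10), 5 activate the helicase (Cdc45 and Gins1 to Gins4), 6 form the sliding clamp and its loader (Pcna and Rfc1 to Rfc5), 6 belong to the polymerases and primase (Pola1, Pola2, Prim1, Prim2, Pold1 and Pole), 2 complete the lagging strand (Fen1 and Lig1), 2 coat single-stranded DNA (Rpa1 and Rpa2), 5 supply nucleotides (Rrm1, Rrm2, Tyms, Tk1 and Dut) and 4 act on newly made chromatin (Chaf1a, Chaf1b, Slbp and Uhrf1).

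Expression was measured by bulk mRNA sequencing of whole tumors from 31 mice, with 1 library per mouse. RM9, a mouse prostate cancer line, or MC38, a mouse colon cancer line, had been injected subcutaneously into the right hind leg of wild-type male C57BL/6J mice, purchased at 6 to 7 weeks of age, and tumors had grown to 8 mm in diameter. Irradiated tumors received a single local dose of 15 Gy (RT) and were collected after 3, 12 or 24 h. Each group held 4 mice, except RM9 at 24 h after RT, which held 3. The control mice received no treatment and carry the 3 h time in their labels, so the 12 h and 24 h tumors were compared with the same controls as the 3 h tumors and had no control of their own time. Each model rests on 1 transplanted cell line in host tissue, and in such bulk samples fewer cells of a type and less RNA per cell cannot be told apart.

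Replication is licensed in G1, when the origin recognition complex, Cdc6 and Cdt1 load the Mcm2 to Mcm7 hexamer onto DNA. In S phase Cdc45 and the GINS complex turn that hexamer into a moving helicase, polymerases extend primers behind it, and ribonucleotide reductase and thymidylate synthesis keep the precursor pools filled. Many of these genes are transcribed in late G1 and early S phase under control of E2F factors, and they are widely read as a sign of proliferation in tumors.

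The promoters of several members carry the E2F element. Windows around it are shown for 4 licensing genes, from the largest role and the one with the most calls after RT. A window is also shown for Gins3, which rose in MC38 and did not fall in RM9. RefSeq promoters (GRCm38.p6, from 250 bases before to 50 bases after each gene start) were matched for 34 of the 41 members. At least 1 of the 4 spellings TTTCCCGC, TTTCGCGC, TTTGCCGC and TTTGGCGC, on either strand, stood in 13 of those 34 promoters, or 38.2%, and in 704 of all 27025 promoters, or 2.61%. Among licensing genes it stood in 7 of 10 promoters (Cdc6, Cdt1, Mcm3, Mcm5, Mcm6, Mcm7 and Orc1, but not Mcm2, Mcm10 or Orc6), and among the 5 nucleotide supply genes in 0. In the lines that follow, capitals mark 1 match per window, and Mcm5 and Mcm6 also hold an overlapping match on the other strand. A further Mcm6 match, 39 bases from the gene start, lies outside its window. Each window runs 5′ to 3′ on the strand of its gene, so that Orc1, Cdc6 and Gins3 show the reverse complement of a spelling. They lie at chr8:75109345-75109374 (Mcm5, plus strand, 145 bases from the end of the element to the gene start), chr1:128359797-128359826 (Mcm6, minus strand, 102 bases), chr4:108579416-108579445 (Orc1, plus strand, 19 bases), chr11:98908002-98908031 (Cdc6, plus strand, 130 bases), and chr8:95633507-95633536 (Gins3, plus strand, 33 bases). All 5 lie upstream of the RefSeq gene start, while the deposited gene models start inside the Orc1 window and before the Cdc6 window.
Mcm5: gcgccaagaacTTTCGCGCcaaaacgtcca
Mcm6: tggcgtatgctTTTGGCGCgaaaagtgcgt
Orc1: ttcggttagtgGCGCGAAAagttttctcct
Cdc6: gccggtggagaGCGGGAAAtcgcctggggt
Gins3: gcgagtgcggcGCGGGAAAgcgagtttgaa
The CCAAT box stood in 22 of the 34 member promoters (64.7%, against 41.1% of all promoters) and the CHR element TTTGAA in 4 (11.8%, against 20.2%), both strands searched. These matches are a description of letters and were not tested for factor binding.

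Depth, derived from the deposited coverage, ranged from 21.4 to 29.4 M reads per library. Values are in TPM, a gene's length-corrected share of all transcripts counted, so they fall when another class of RNA takes more of the total. Mitochondrially encoded genes took 47.3% to 57.2% of TPM in RM9 and 22.5% to 40.6% in MC38. The single gene mt-Nd4l took 35.6% to 43.5% of TPM in RM9 and 12.9% to 29.6% in MC38. Among MC38 libraries control mouse 1 stood highest in both shares. That library also held the most muscle RNA, a summed 12249 TPM over 9 muscle markers, against 9.84 to 4041 TPM in the other MC38 tumors. Epithelial markers (5 genes) summed to 669 to 1526 TPM in RM9 and to 0.553 to 1.56 TPM in MC38, so the defining epithelial keratins and cadherin were near 0 in the line labelled as colon adenocarcinoma. Because of the share taken by mitochondrial genes, counts of calls are given as deposited and after median-ratio scaling. There a library is divided by its median ratio to the geometric mean of its tumor model, over genes above 0 in every library. For contrasts between tumors, that mean was taken over all 31 libraries. Changes of single genes are as deposited unless the scaling is named. As deposited, the median log2 change of all genes was 0.056, -0.19 and -0.041 in RM9 and 0.19, 0.33 and 0.22 in MC38 at 3, 12 and 24 h, and after the scaling it lay between -0.02 and 0.01.

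The 41 genes were expressed in both tumors and higher in MC38. Over the members, the mean log2(TPM + 0.5) per library averaged 4.19 ± 0.17 (SD, n = 4) in RM9 controls and 5.58 ± 0.31 (n = 4) in MC38 controls. Pcna, the sliding clamp, stood highest in RM9 controls at 97.9 ± 7.53 TPM (SD, n = 4), followed by Dut and Mcm6, with 83.1 ± 19.9 and 71.3 ± 7.39 TPM. Rrm2, the regulated subunit of ribonucleotide reductase, led in MC38 controls at 228 ± 56.9 TPM, and its 4 libraries overlapped those of Pcna at 195 ± 34.7 TPM. At the other end, Orc1, Gins3, Cdc6 and Pole held 1.53, 2.66, 3.06 and 5.98 TPM in RM9 controls. The same 4 genes were the lowest in MC38 controls, between 10.5 and 17.4 TPM.

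As deposited, the member level after RT lay below control in RM9 at 12 h and above control in MC38 at each time. In RM9 it was 4.17 ± 0.26 at 3 h, 3.73 ± 0.12 at 12 h and 4.04 ± 0.18 at 24 h, and the 12 h libraries (3.56 to 3.82) lay below every control (4.02 to 4.43). In MC38 it was 5.97 ± 0.082, 5.96 ± 0.024 and 6.01 ± 0.11 at the same times. All 12 irradiated MC38 libraries lay between 5.85 and 6.09, and the controls between 5.14 and 5.83. After median-ratio scaling the difference from control was -0.25 in place of -0.46 at 12 h in RM9, and 0.033 in place of 0.38 at 12 h in MC38. At 3 h and 24 h the scaled MC38 libraries lay at 5.89 to 6.04 and 5.88 to 6.00, above every scaled control at 5.74 to 5.81.

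**Figure D1:**
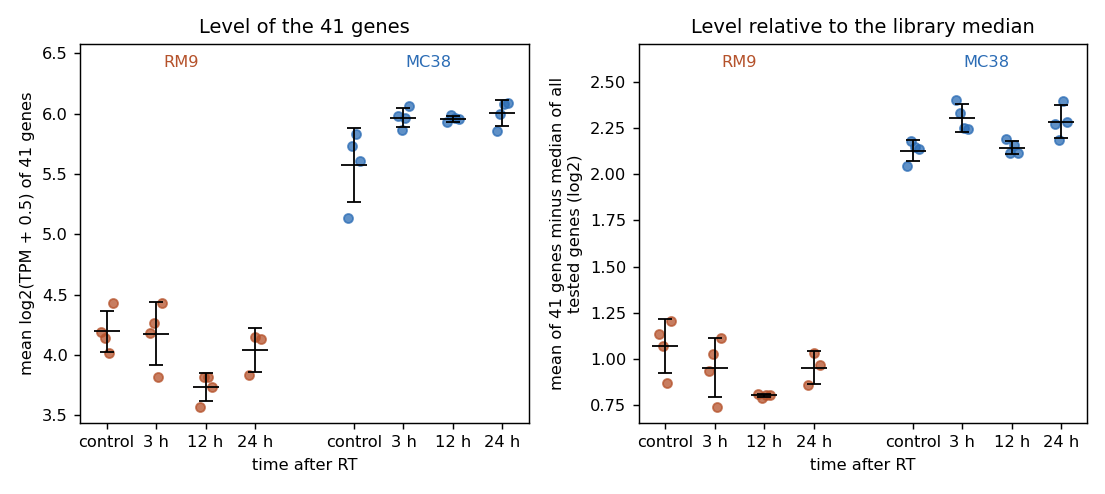
Mean log2(TPM + 0.5) over the 41 genes in each of the 31 libraries, by tumor model and time after RT, with the group mean and SD. The RM9 libraries at 12 h lie below every RM9 control, and the lowest MC38 control is mouse 1.

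In RM9 tumors 3 h after RT, 0 of the 41 members passed an adjusted p of 0.05 in limma, 2 had an unadjusted p under 0.05 (background 21.8%), and Dunnett's comparisons, per gene and not adjusted over genes, called 1 higher (background 10.5%). The background was 0.2% of all genes called higher and 0.0285% called lower. The median member change was -0.027 on the log2 scale, against 0.056 over all genes. After median-ratio scaling 0 members passed (background 1.69% higher and 1.21% lower) and the median was -0.10. Unadjusted p was then under 0.05 for 7 members, and for 4009 of all 14013 genes. By size, Gins2 (log2 change -0.48, SE 0.30, adjusted p = 0.342) and Tk1 (-0.25) stood lowest, and Cdc6 (0.43, SE 0.24, adjusted p = 0.291) and Rfc1 (0.32) highest. Gins2 is a subunit of GINS, and its RM9 controls alone ran from 3.84 to 10.5 TPM. Mouse 3 of this group was the lowest of its 4 libraries for 41 of 41 members, and also in the median of all genes.

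In RM9 tumors 12 h after RT, 15 members fell and 0 rose, against a background of 8.3% of all genes called lower and 0.0714% called higher. Mcm2 to Mcm7, Cdt1, Lig1, Fen1, Chaf1a, Chaf1b, Rpa2, Pcna, Pole and Gins4 made up the 15. The median over the 41 members was -0.43, against -0.19 over all genes, and 40 of 41 had a negative change. In 26 members every 12 h library lay below every control, which held for 19.4% of all genes. By role the calls were 7 of 11 licensing genes (median -0.67), 2 of 2 lagging strand genes, 2 of 4 chromatin genes, 1 each of the helicase, clamp, polymerase and single-strand binding groups, and 0 of 5 nucleotide supply genes (median -0.39). After median-ratio scaling 0 members passed (background 0.0428% called lower), 19 had an unadjusted p under 0.05 (background 15.2%) and the median was -0.22. As deposited, the count was also 0 when control mouse 1, 2 or 4 or RT 12 h mouse 1 or 4 was left out, in fits whose shares of all genes are not given.

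Several library values moved with this comparison. Mitochondrial genes took 52.4% to 57.2% of TPM in the 12 h tumors and 47.8% to 50.5% in controls, and the summed level of 9 macrophage markers was 194 to 375 TPM against 388 to 609 TPM, with no marker at 0 in either group. The 5 epithelial markers, none at 0, summed to 669 to 1137 TPM against 1155 to 1395 TPM, without overlap. Muscle markers (9 genes, none at 0) ran from 3.59 to 1018 TPM against 259 to 2519 TPM, and so overlapped. Their part in the fall of the members was not tested. Within a library, where a scaling factor cancels, the members' mean minus the median of all genes was 0.79 to 0.81 on the log2 scale at 12 h and 0.87 to 1.21 in controls, so the groups did not overlap by that measure.

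In RM9 tumors 24 h after RT, 0 members passed in limma, as did 0% of all genes. Dunnett's comparisons called 0 members (background 1.13% higher and 1.18% lower). In limma 1 member had an unadjusted p under 0.05, as did 4.86% of all genes. The median member change was -0.17, against -0.041 over all genes. Gins2 (-0.51, SE 0.32, adjusted p = 0.999) and Lig1 (-0.37, SE 0.18, adjusted p = 0.999) stood lowest, and Cdc6 (0.15) and Rrm2 (0.039) highest. Mouse 1 held the lowest value of its 3 libraries for 38 of 41 members, and also the lowest median of all genes. Against 12 h, 39 of 41 members were higher at 24 h and 15 did not overlap (background 12.7%), 0 passed in limma (0% of all genes did) and 16 had an unadjusted p under 0.05, where 18.8% of all genes did. The largest of these differences were Cdc6 (0.82, adjusted p = 0.146) and Mcm2 (0.62, adjusted p = 0.106), and the lowest Gins3 (-0.12) and Gins2 (-0.025).

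MC38 tumors 3 h after RT gave a different picture: 41 of 41 members had a positive change and 0 passed in limma, where 0.051% of all genes were called higher. Unadjusted p fell under 0.05 for 31 members, against 19.9% of all genes, and Dunnett's comparisons, per gene and not adjusted over genes, called 24 (background 7.8%). The median was 0.39, against 0.19 over all genes, or 0.18 after median-ratio scaling, and 25 members lay above every control (background 7.2%). Chaf1b (0.62, SE 0.14, adjusted p = 0.0738) and Pole (0.59, SE 0.20, adjusted p = 0.164) stood highest. After median-ratio scaling Chaf1b (0.41, adjusted p = 0.0383) and Pola2 (0.32, adjusted p = 0.0381) passed, against 0.274% of all genes called higher and 0.357% lower. Within a library the members' mean minus the median of all genes was 2.24 to 2.40 at 3 h and 2.04 to 2.18 in controls, without overlap. The same measure was 2.11 to 2.19 at 12 h, which overlapped the controls, and 2.18 to 2.40 at 24 h. The lowest 24 h library, at 2.1835, lay just above the highest control, at 2.1803. In RM9 this measure was 0.74 to 1.11 at 3 h and 0.86 to 1.03 at 24 h, both overlapping the controls at 0.87 to 1.21.

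In MC38 tumors 12 h after RT, 20 members rose and 0 fell, against 28.5% of all genes called higher and 2.59% called lower. That share of members (20 of 41) sat among broad rises, since the median was 0.38 over the members and 0.33 over all genes. In 29 members every 12 h library lay above every control, which held for 34.5% of all genes. Pole (0.82), Gins3 (0.68), Orc1 (0.67) and Rrm2 (0.65) rose most. After median-ratio scaling 4 were higher (Chaf1a, Pole, Orc1 and Gins3, background 6.27%) and 2 were lower (Tk1 -0.33 and Gins1 -0.32, background 9.98%), and the median was 0.030. A fit of the 2 groups alone called 3 rises (Pola1, Orc1 and Rfc3), and the share of all genes in that fit is not given. Without RT 12 h mouse 2 or mouse 4 the count of rises as deposited was 9 or 11, and without control mouse 1 or mouse 4 it was 13. The shares of all genes in the fits without 1 mouse are not given, so these counts cannot be set against a background. The macrophage markers summed to 314 to 742 TPM at 12 h and 858 to 1365 TPM in controls, and mitochondrial genes took 23.0% to 25.9% of TPM at 12 h and 25.7% to 40.6% in controls. Their part in these rises was not tested.

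In MC38 tumors 24 h after RT, 23 members rose and 0 fell, against 13.2% of all genes called higher and 0.548% called lower. The rise was largest among licensing genes, of which 10 of 11 passed with a median of 0.64, and smallest among nucleotide supply genes, of which 1 of 5 (Rrm1) passed with a median of 0.14. Between them stood helicase activation with 3 of 5, polymerases and primase with 3 of 6, clamp and loader with 2 of 6, chromatin with 3 of 4, lagging strand with 1 of 2 and single-strand binding with 0 of 2. The member median was 0.45, against 0.22 over all genes, and 20 members lay above every control (background 14.8%). A fit of the 2 groups alone called 3 rises (Mcm3, Mcm4 and Mcm6), and the share of all genes in that fit is not given. After median-ratio scaling the median was 0.18, 18 members were higher (background 7.79%), among them 9 of 11 licensing genes, and Tk1 was lower at -0.55 (adjusted p = 8.05e-04; background 8.2%). With that scaling and without control mouse 1, the library rich in muscle RNA, 13 were higher (Mcm2, Mcm3, Mcm4, Mcm6, Mcm10, Orc1, Pole, Prim2, Rfc3, Lig1, Chaf1a, Chaf1b and Gins3) and Tk1 again lower. In that fit 896 of all 15691 genes were called higher and 860 lower. As deposited, the count was 13 without RT 24 h mouse 4 and 15 without RT 24 h mouse 2, in fits whose shares of all genes are not given. The summed level of 6 endothelial markers was 57.5 to 76.3 TPM at 24 h and 41.8 to 57.1 TPM in controls, and that of 8 T cell markers 13.6 to 23.6 and 25.6 to 36.8 TPM, neither with overlap and none at 0. Muscle markers summed to 14.9 to 4041 TPM at 24 h and 21.8 to 12249 TPM in controls, and macrophage markers to 698 to 878 and 858 to 1365 TPM, with overlap. Their part in these rises was not tested.

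**Figure D2:**
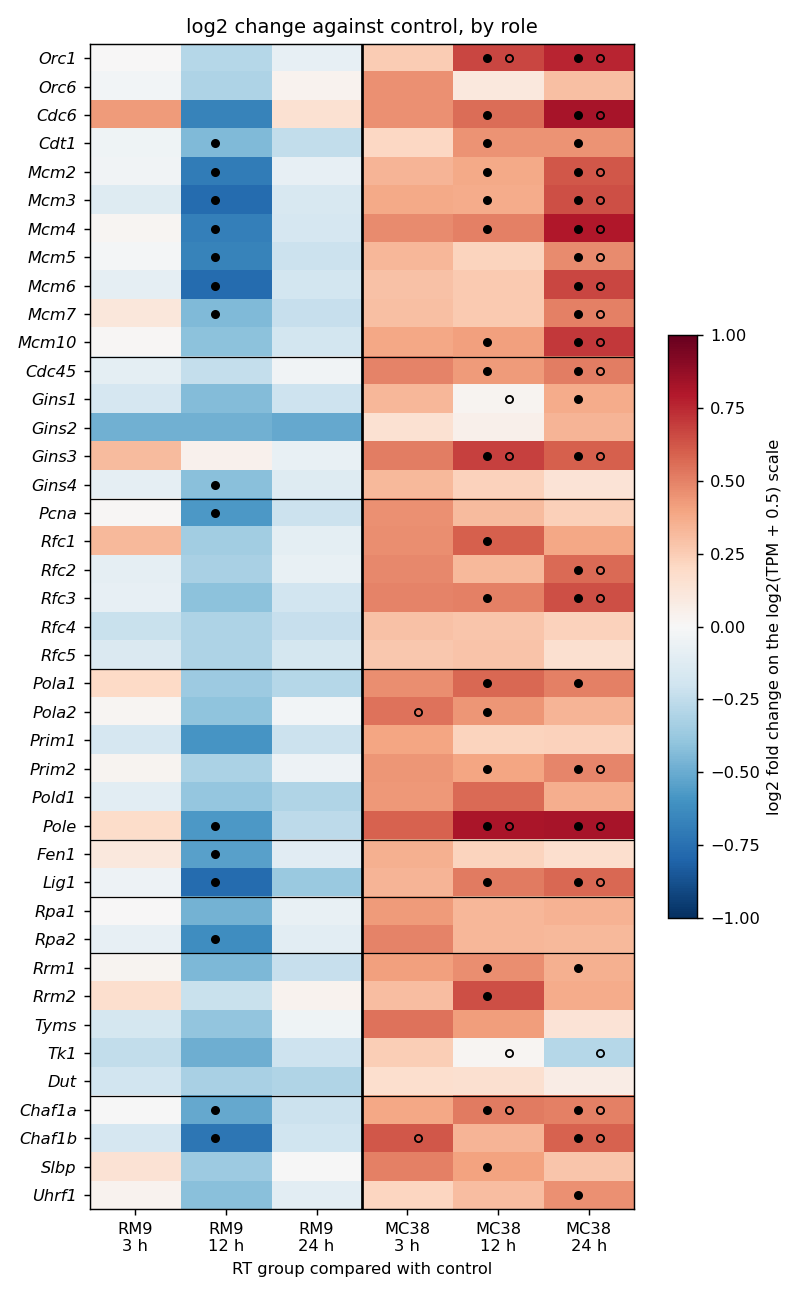
Log2 change of each of the 41 genes against control at 3, 12 and 24 h after RT in RM9 and MC38 tumors, with genes ordered by role and calls marked. Negative changes fill the RM9 12 h column, where 40 of 41 genes are below 0, and 10 of 11 licensing genes are marked as calls in MC38 at 24 h.

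Licensing genes, the largest role, gave the most calls by count in both tumors. By share of the role, the lagging strand genes stood higher in RM9 at 12 h. Mcm6, a subunit of the helicase hexamer (chr1:128331590-128359664, minus strand, coordinates as deposited, matching GRCm38), measured 77.4, 71.6, 60.8 and 75.4 TPM in the 4 RM9 controls and 31.8, 48.6, 45.6 and 41.7 TPM at 12 h, without overlap. It fell by 0.77 on the log2 scale (SE 0.15, adjusted p = 0.0246), and after median-ratio scaling the change was -0.55 (adjusted p = 0.0584). In MC38 the values were 93.98, 125, 131 and 121 TPM in controls and 203, 171, 187 and 184 TPM at 24 h, where every irradiated tumor was higher. The rise there was 0.67 (SE 0.10, adjusted p = 8.41e-04), and 0.40 after the scaling (adjusted p = 0.00551). Mcm4, its neighbour in the same ring, rose from 38.3, 59.3, 65.5 and 58.2 TPM to 94.7, 94.5, 87.7 and 103 TPM, a change of 0.80 (SE 0.13, adjusted p = 0.00134). In RM9 its values were 33.4, 29.9, 27.7 and 34.3 TPM in controls and 15.7, 21.9, 20.3 and 19.5 TPM at 12 h (-0.68, adjusted p = 0.0246).

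Mcm2, the subunit that also binds histones at the fork, gave 29.5, 22.9, 25.2 and 32.7 TPM in RM9 controls and 14.1, 18.1, 18.6 and 16.2 TPM at 12 h. At 24 h its 3 RM9 tumors held 23.3, 26.9 and 27.5 TPM, back within the range of the controls. In MC38 it went from 65.6, 93.5, 94.3 and 79.1 TPM to 138, 116, 128 and 126 TPM at 24 h, a rise of 0.62 (SE 0.11, adjusted p = 0.00243). Mcm3 was among the largest falls in RM9 at 12 h, from 44.2, 37.2, 35.3 and 45.8 TPM to 19.9, 25.7, 25.5 and 23.6 TPM (-0.77, adjusted p = 0.0246). All 6 genes of the Mcm2 to Mcm7 hexamer were thus lower in RM9 at 12 h and higher in MC38 at 24 h as deposited. Mcm10, which helps start the helicase, measured 7.31, 7.01, 7.15 and 7.58 TPM in RM9 controls and 4.07, 6.12, 5.48 and 5.86 TPM at 12 h, where it did not pass (-0.41, adjusted p = 0.103). In MC38 it rose from 18.5, 29.6, 31.2 and 26.5 TPM to 36.4, 44.9, 43.4 and 46.7 TPM (0.71, adjusted p = 0.00709).

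Orc1 is the largest subunit of the origin recognition complex and had the lowest level of the 41 in RM9. Its values there were 1.45, 1.23, 1.43 and 2.02 TPM in controls and 0.880, 1.39, 1.26 and 1.13 TPM at 12 h, which overlapped. MC38 controls held 9.54, 16.2, 16.3 and 14.04 TPM, and the irradiated tumors 21.01, 22.5, 22.5 and 22.5 TPM at 12 h and 22.9, 23.8, 22.1 and 26.03 TPM at 24 h. Every MC38 tumor at these times was above every control, and the rise was 0.67 at 12 h (adjusted p = 0.0114) and 0.76 at 24 h (adjusted p = 0.00419). Cdc6, which loads the hexamer with Cdt1, gave 2.88, 2.70, 2.81 and 3.83 TPM in RM9 controls, 3.21, 6.05, 2.57 and 6.32 TPM at 3 h and 1.25, 1.71, 2.32 and 1.72 TPM at 12 h. The 3 h libraries were split, with mice 2 and 4 above every control and mice 1 and 3 near them, and the 12 h libraries were below every control without passing (-0.67, adjusted p = 0.0788). In MC38 Cdc6 rose from 9.86, 14.3, 14.7 and 13.7 TPM to 19.1, 22.1, 31.6 and 22.2 TPM at 24 h (0.82, adjusted p = 0.0102). Cdt1 itself fell in RM9 from 20.3, 18.3, 19.8 and 21.6 TPM to 13.95, 16.1, 13.7 and 14.5 TPM (-0.44, adjusted p = 0.0304). It rose in MC38 from 62.3, 97.9, 100.3 and 84.3 TPM to 100.1, 111, 132 and 123 TPM at 24 h (0.45, adjusted p = 0.0410), with mouse 1 inside the range of the controls, and after median-ratio scaling it did not pass (0.18, adjusted p = 0.0878).

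**Figure D3:**
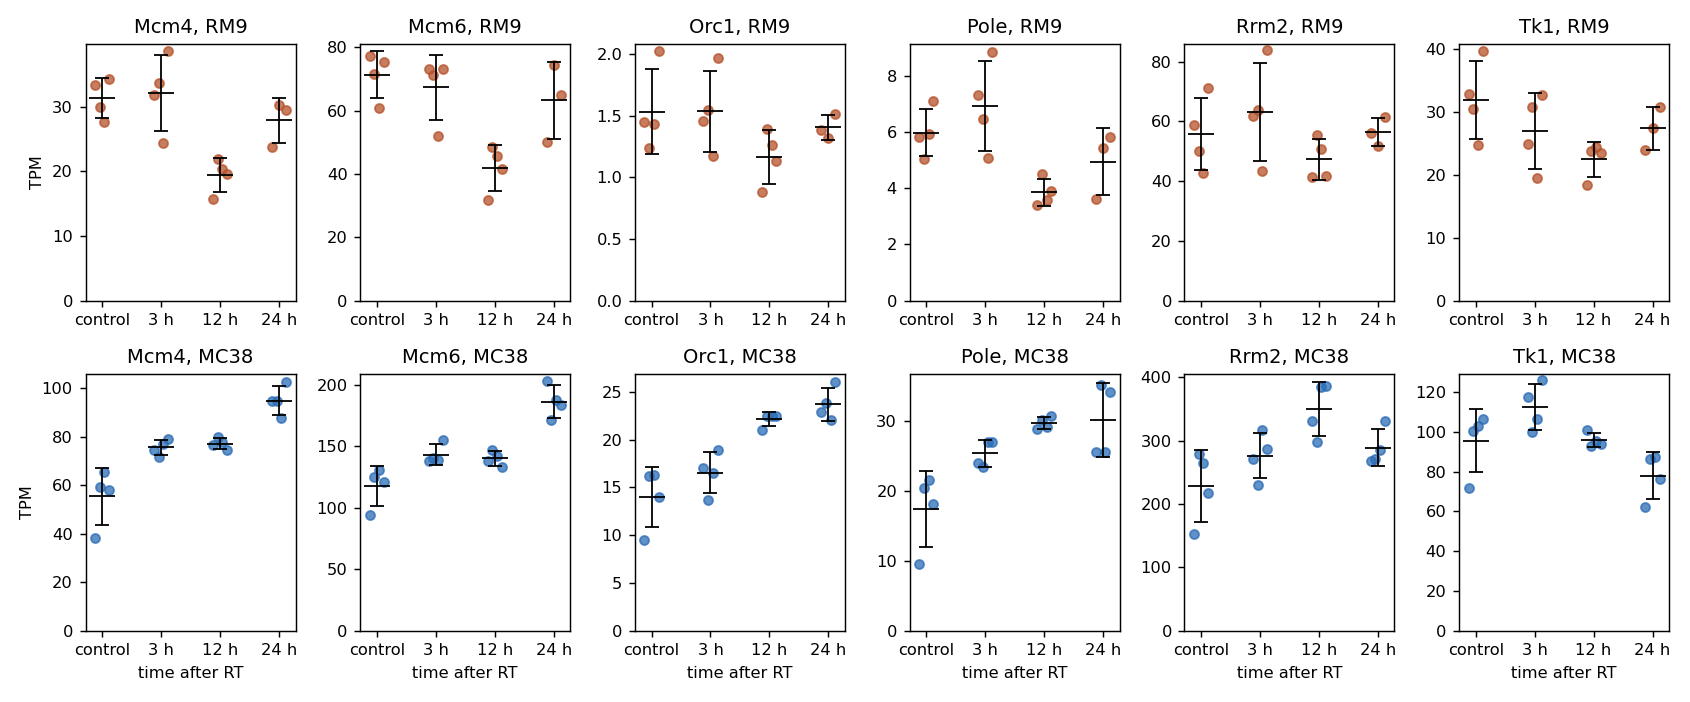
TPM of Mcm4, Mcm6, Orc1, Pole, Rrm2 and Tk1 in each library of RM9 (top) and MC38 (bottom) by time after RT, with group mean and SD. Mcm4, Mcm6 and Orc1 stand above the MC38 controls at 24 h, and Tk1 lies at 62.1 to 87.3 TPM there against 72.0 to 107 TPM in controls.

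Of the helicase activators, Cdc45 measured 18.04, 18.3, 15.6 and 19.7 TPM in RM9 controls and 12.8, 15.7, 16.4 and 15.5 TPM at 12 h, with mice 2 and 3 inside the control range (-0.24, adjusted p = 0.184). In MC38 it rose from 26.4, 42.2, 47.3 and 38.4 TPM to 45.2, 60.7, 53.5 and 57.3 TPM at 24 h (0.51, adjusted p = 0.0305). The GINS subunits, which join Cdc45 on the hexamer, were not called together. Gins1 gave 10.02, 10.7, 7.53 and 11.2 TPM in RM9 controls and 6.77, 7.32, 6.48 and 7.86 TPM at 12 h (-0.43, adjusted p = 0.0598), and 34.8, 45.95, 44.6 and 44.7 TPM in MC38 controls and 46.7, 52.8, 63.4 and 57.9 TPM at 24 h (0.37, adjusted p = 0.0389). Gins3 was the one member with a positive change in RM9 at 12 h (0.046, adjusted p = 0.825), at 2.30, 2.54, 2.48 and 3.31 TPM in controls and 2.48, 2.79, 2.54 and 3.20 TPM after RT. In MC38 its 12 h values of 16.7, 16.8, 16.2 and 16.8 TPM were above the controls at 6.55, 11.7, 12.6 and 10.9 TPM (0.68, adjusted p = 0.0141). Gins4 fell in RM9 at 12 h (-0.42, adjusted p = 0.0316) and did not pass in MC38 at any time, and Gins2, which ran from 21.6 to 41.997 TPM over the MC38 controls, passed in no comparison.

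Pcna, the ring that tethers polymerases to DNA, fell in RM9 at 12 h from 94.7, 98.3, 90.4 and 108 TPM to 57.2, 68.6, 69.99 and 66.7 TPM (-0.57, adjusted p = 0.0288). In MC38 it did not pass at 24 h, with 144, 208, 223 and 206 TPM in controls and 194, 231, 251 and 236 TPM after RT, which overlapped (0.24, adjusted p = 0.201). Rfc4, a small subunit of the loader that opens the clamp, gave 14.9, 15.4, 11.01 and 18.1 TPM and 12.2, 10.4, 11.8 and 12.6 TPM in RM9 controls and at 12 h, and 25.001, 35.4, 36.5 and 36.8 TPM and 29.6, 40.6, 44.3 and 42.8 TPM in MC38 controls and at 24 h. Neither difference passed (adjusted p = 0.164 and 0.259). Rfc2 and Rfc3 were the loader subunits that rose in MC38 at 24 h, by 0.57 and 0.64.

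Pole, the catalytic subunit of the leading strand polymerase, had the largest rise of the 41 genes in MC38 at 12 h, and at 24 h stood level with Cdc6 (0.82). With scaling and without control mouse 1, Cdc6 (0.57), Mcm4 (0.50) and Orc1 (0.47) lay above Pole (0.44) at 24 h. Pole measured 9.52, 20.4, 21.5 and 18.1 TPM in controls, 28.9, 30.1, 29.04 and 30.6 TPM at 12 h and 25.5, 35.2, 25.6 and 34.1 TPM at 24 h, all above the controls. The rise was 0.82 (SE 0.20, adjusted p = 0.0141) at 12 h and 0.82 (SE 0.20, adjusted p = 0.0136) at 24 h, and after median-ratio scaling 0.47 (adjusted p = 0.0126) and 0.56 (adjusted p = 0.00366). In RM9 Pole fell at 12 h from 5.83, 5.05, 5.93 and 7.10 TPM to 3.41, 4.52, 3.60 and 3.90 TPM (-0.57, adjusted p = 0.0491). Pola1, the catalytic subunit of the polymerase that starts primers, measured 6.54, 6.49, 7.77 and 7.56 TPM in RM9 controls and 4.08, 7.13, 5.10 and 5.55 TPM at 12 h (-0.37, adjusted p = 0.189). It rose in MC38 at 12 h from 13.7, 19.3, 20.2 and 17.9 TPM to 26.2, 27.5, 25.1 and 27.05 TPM (0.57, adjusted p = 0.0144), and at 24 h mouse 3, at 19.0 TPM, was back in the control range.

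Lig1, the ligase that joins Okazaki fragments, shared the largest fall in RM9 at 12 h with Mcm6 and Mcm3, each at -0.77. Lig1 went from 16.1, 13.6, 13.4 and 19.4 TPM to 7.63, 10.9, 8.96 and 8.25 TPM (-0.77, SE 0.17, adjusted p = 0.0277). In MC38 it rose from 37.6, 55.3, 63.5 and 51.9 TPM to 69.8, 77.3, 85.5 and 73.03 TPM at 24 h (0.57, adjusted p = 0.0163). Fen1, the flap endonuclease of the same step, fell in RM9 from 19.9, 21.1, 18.4 and 25.4 TPM to 13.2, 14.5, 14.8 and 14.6 TPM (-0.54, adjusted p = 0.0272) and did not pass in MC38 at 24 h, with 37.01, 52.5, 50.2 and 51.6 TPM in controls and 44.6, 53.2, 59.9 and 57.1 TPM after RT (0.17, adjusted p = 0.341). Rpa2, part of the single-strand binding complex, fell in RM9 from 14.4, 12.8, 11.1 and 16.03 TPM to 8.55, 7.56, 9.66 and 8.66 TPM (-0.62, adjusted p = 0.0303). In MC38 its 24 h values of 51.5, 53.7, 65.2 and 60.8 TPM overlapped the controls at 33.9, 51.4, 53.4 and 47.4 TPM (0.32, adjusted p = 0.0973).

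Nucleotide supply genes gave 0 calls of 5 in RM9 at 12 h, and 2 and 1 of 5 in MC38 at 12 h and 24 h, and the difference from the counts of licensing genes was not tested. Rrm2 in MC38 rose at 12 h from 152, 278, 264 and 217 TPM to 331, 298, 384 and 386 TPM (0.65, adjusted p = 0.0155), and its 24 h values of 268, 272, 285 and 331 TPM overlapped the controls. After median-ratio scaling the 12 h difference was 0.29 (adjusted p = 0.0605). In RM9 Rrm2 gave 58.8, 50.2, 42.9 and 71.1 TPM in controls and 41.4, 55.4, 50.7 and 41.8 TPM at 12 h, which overlapped (-0.22, adjusted p = 0.417). Tk1, the thymidine kinase of the salvage route, was the one member with a negative change in MC38 at 24 h. Its 4 controls held 71.99, 100.3, 103 and 107 TPM and its 24 h tumors 62.1, 86.3, 87.3 and 76.3 TPM, so 3 of 4 controls were above every irradiated tumor and mouse 1 was within their range. As deposited the difference was -0.29 (SE 0.13, adjusted p = 0.156), and after median-ratio scaling -0.55 (adjusted p = 8.05e-04). In RM9 Tk1 measured 32.97, 30.5, 24.8 and 39.8 TPM in controls and 18.3, 23.8, 24.4 and 23.5 TPM at 12 h, below every control without passing (-0.49, adjusted p = 0.0718).

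Tyms, which makes thymidylate, and Dut, which removes dUTP, gave groups that overlapped. Tyms gave 21.5, 32.6, 61.99 and 34.6 TPM in MC38 controls and 45.9, 31.3, 47.1 and 32.97 TPM at 24 h (0.14, adjusted p = 0.771), and 24.7, 34.4, 28.6 and 31.04 TPM and 35.99, 20.6, 16.8 and 19.9 TPM in RM9 controls and at 12 h (-0.39, adjusted p = 0.314). Dut gave 109, 153, 183 and 168 TPM in MC38 controls and 89.9, 175, 211 and 191 TPM at 24 h (0.077, adjusted p = 0.855). In RM9 it held 82.7, 80.2, 60.4 and 109 TPM and 67.8, 53.4, 64.4 and 75.2 TPM (-0.33, adjusted p = 0.270). Both genes passed in no comparison with control.

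Among chromatin genes, Chaf1b, a subunit of the CAF-1 histone chaperone, fell in RM9 at 12 h from 10.998, 10.6, 9.20 and 13.7 TPM to 5.76, 7.01, 6.38 and 6.88 TPM (-0.72, SE 0.15, adjusted p = 0.0260). Its partner Chaf1a fell there from 19.2, 17.8, 16.4 and 19.8 TPM to 10.3, 14.6, 13.4 and 12.7 TPM (-0.51, adjusted p = 0.0471). In MC38 Chaf1a rose from 23.1, 37.3, 40.4 and 34.6 TPM to 48.1, 49.7, 46.9 and 46.5 TPM at 12 h and 42.3, 49.1, 48.7 and 49.1 TPM at 24 h, each above every control (0.52 and 0.50, adjusted p = 0.0182 and 0.0251). Slbp binds the stem-loop of replication-dependent histone mRNAs, which lack a poly(A) tail. It held 25.6, 25.9, 24.7 and 30.2 TPM in RM9 controls and 19.8, 20.2, 22.2 and 19.7 TPM at 12 h (-0.36, adjusted p = 0.0694), and rose in MC38 at 12 h from 45.97, 71.2, 77.2 and 68.3 TPM to 89.2, 90.7, 79.5 and 83.3 TPM (0.41, adjusted p = 0.0371). Uhrf1, which recruits maintenance methylation to new DNA, gave 25.3, 18.9, 23.3 and 26.999 TPM and 13.4, 19.2, 20.3 and 17.4 TPM in RM9 (-0.42, adjusted p = 0.106). In MC38 it rose at 24 h from 50.1, 73.2, 77.5 and 63.5 TPM to 101, 85.9, 86.5 and 86.8 TPM (0.46, adjusted p = 0.0256).

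**Figure D4:**
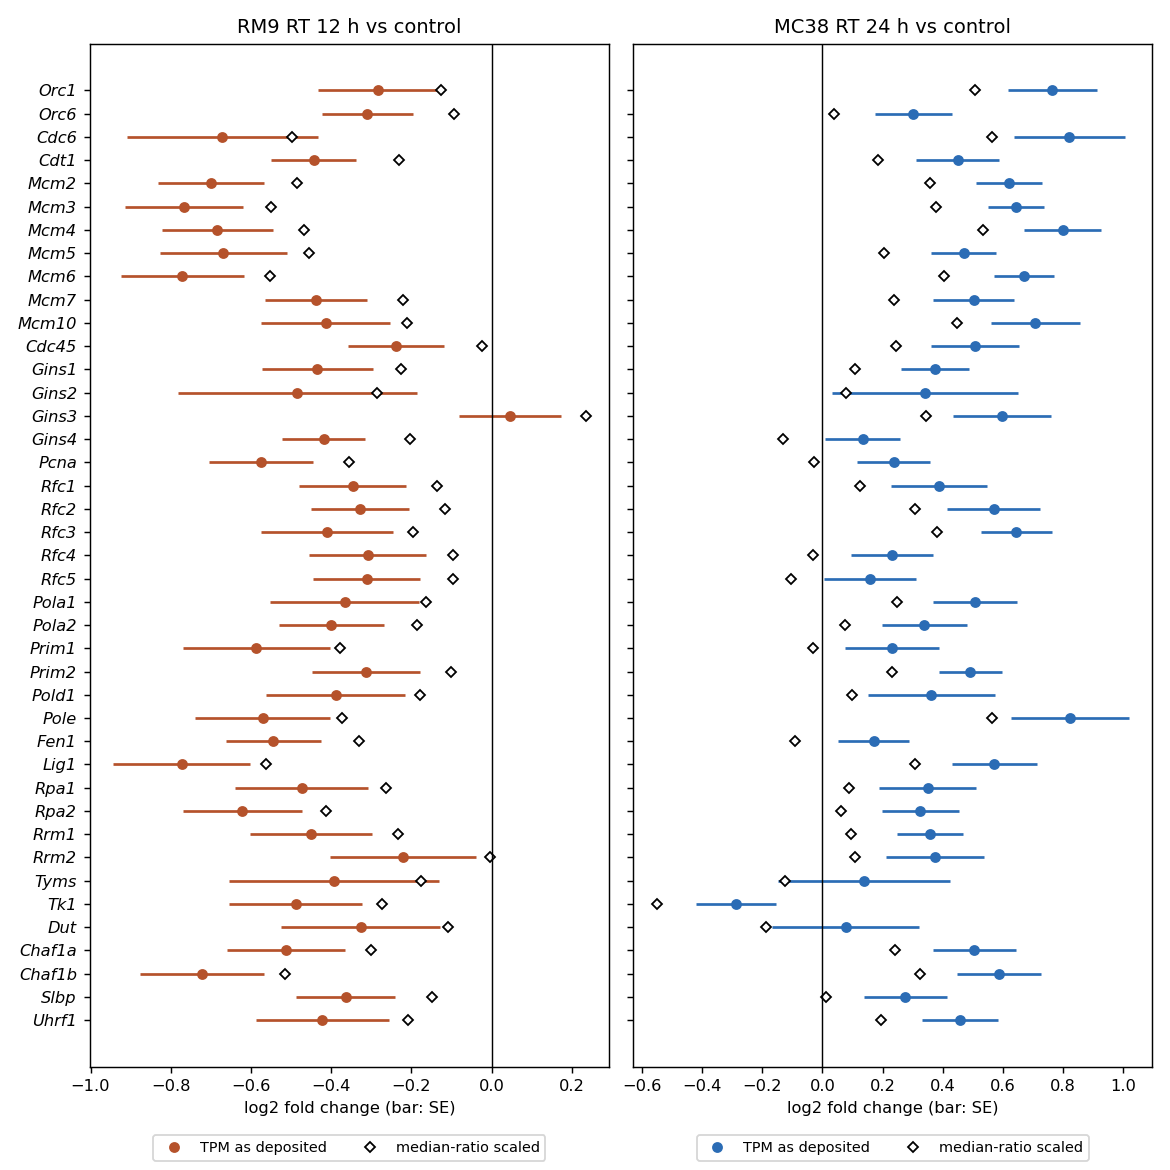
Log2 change of each of the 41 genes in RM9 at 12 h (left) and MC38 at 24 h (right), as deposited (circles, bars are SE) and after median-ratio scaling (diamonds). The scaling moves RM9 values up and MC38 values down, and Tk1 is the lowest gene in MC38 under both.

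A difference between genes of the same library does not depend on how that library is scaled. The mean log2 level of Mcm2 to Mcm7 minus that of Tk1 was -0.20 to 0.025 in the MC38 controls, -0.081 to 0.17 at 3 h, 0.17 to 0.35 at 12 h and 0.61 to 1.20 at 24 h. In MC38 the 12 h and 24 h libraries lay above every control and did not overlap each other. In RM9 the same difference was 0.11 to 0.42 in controls, 0.34 to 0.59 at 3 h, 0.014 to 0.12 at 12 h and 0.20 to 0.42 at 24 h. Each RM9 time overlapped the controls. Licensing genes minus nucleotide supply genes went from -0.88 to -0.69 in MC38 controls to -0.36 to -0.15 at 24 h, again without overlap. These differences between gene groups were noticed in the same data and carry no test.

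**Figure D5:**
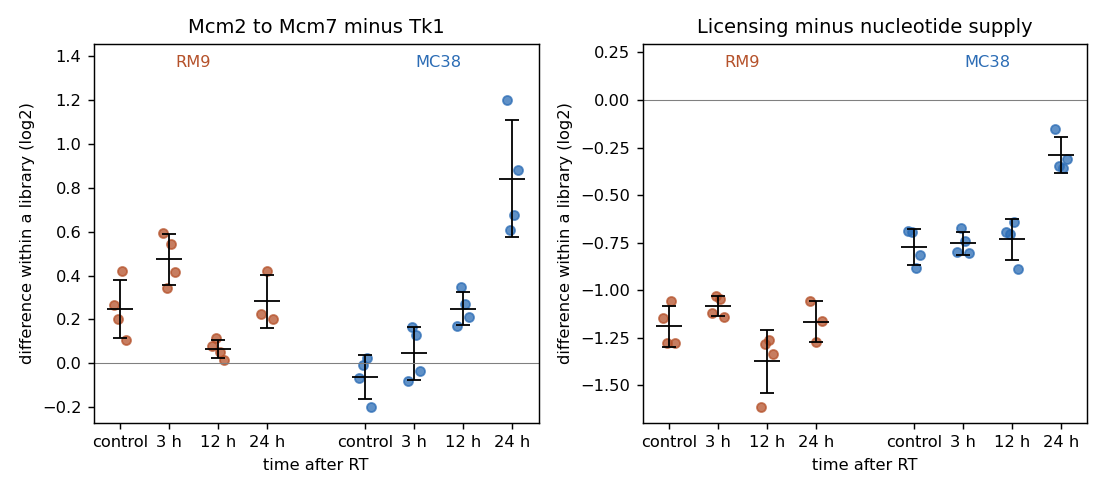
Differences within each library on the log2 scale by tumor model and time after RT, for Mcm2 to Mcm7 minus Tk1 (left) and licensing minus nucleotide supply genes (right), with group mean and SD. The 4 MC38 libraries at 24 h stand apart from the controls in both panels.

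Between 12 h and 24 h in MC38, 0 members passed in limma (background 1.39% higher and 0.293% lower), 7 had an unadjusted p under 0.05 (background 14%) and the median was 0.0079. Mcm6 (0.41, adjusted p = 0.05001) and Gins1 (0.35, adjusted p = 0.165) stood highest, and Tk1 (-0.31, adjusted p = 0.314) and Tyms (-0.28) lowest. After median-ratio scaling 10 members were higher at 24 h than at 12 h (Mcm2 to Mcm7, Mcm10, Gins1, Rfc2 and Chaf1b), against 3.69% of all genes. Without control mouse 1 the same count was 10, against 631 of all 15691 genes.

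Whether the change after RT differed between the tumors was tested as the change in MC38 minus the change in RM9 in 1 limma fit over 31 libraries. At 3 h 0 members passed, as did 0% of all genes, and 18 had an unadjusted p under 0.05 (background 9.89%). At 12 h 36 members passed, each with the more positive change in MC38, against 44.9% of all genes, and after median-ratio scaling 8 passed (Mcm2, Mcm3, Mcm4, Orc1, Pole, Lig1, Chaf1a and Chaf1b), against 1.52%. Pole (1.39, SE 0.27, adjusted p = 0.00167), Lig1 (1.29), Cdc6 (1.23) and Mcm4 (1.19) differed most. At 24 h 10 members differed, against 1.81% of all genes: Pole (1.09, SE 0.28, adjusted p = 0.0388), Mcm4 (0.97, SE 0.20, adjusted p = 0.0127), Lig1 (0.94), Mcm10 (0.89), Mcm6, Orc1, Rfc3, Mcm3, Mcm2 and Cdt1. Licensing genes made up 7 of the 10. After median-ratio scaling 10 passed as well (background 1.24%), with Mcm7 and Chaf1a in place of Mcm2 and Rfc3. This count at 24 h depended on single mice: it was 0 without RM9 RT 24 h mouse 1, which held the lowest RM9 value at 24 h for 38 members, and 1 without MC38 control mouse 1 or RM9 control mouse 4. Shares of all genes in these fits are not given. With the scaling and without MC38 control mouse 1, Pole and Mcm4 passed, against 99 of all 15328 genes called in that direction.

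Of the 15 members that fell in RM9 at 12 h, 11 (73.3%) were among the 23 that rose in MC38 at 24 h (47.8% of those), where 56.1% of the 41 members rose, namely Cdt1, Mcm2 to Mcm7, Pole, Lig1, Chaf1a and Chaf1b. These lists come from different mice and share no controls. With the 20 that rose in MC38 at 12 h the overlap was 7 genes (46.7% and 35.0%), where 48.8% of the 41 did. Over all genes tested in both tumors, 11.3% of those that fell in RM9 at 12 h rose in MC38 at 24 h, where 13.6% of all genes rose, and 18.3% rose at 12 h, where 30.4% did.

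Further genes of the same pathways were counted in the same fits, in which 8.3% of all genes fell in RM9 at 12 h and 28.5% and 13.2% rose in MC38 at 12 h and 24 h. Of 40 further replication genes tested, 8 fell in RM9 at 12 h, with Tipin, Nasp and Pole2 at the smallest p (-0.49, -0.48 and -0.55), and 0 passed after median-ratio scaling. In MC38 23 of the 40 rose at 12 h, led by Top2a, the topoisomerase that untangles copied DNA (0.78), and 11 at 24 h, led by Dscc1, Timeless and Hells (0.61, 0.61 and 0.60). After the scaling 5 rose at 12 h, and 5 rose and 1 fell at 24 h, against 6.27% and 7.79% of all genes called higher. Of 31 further nucleotide genes, 10 fell in RM9 at 12 h, among them Atic and Paics, enzymes of purine synthesis (-0.44 and -0.45). In MC38 13 rose and 1 fell at 12 h, with Cad, which starts pyrimidine synthesis, at 0.81, and 6 rose at 24 h, with Samhd1, which degrades deoxynucleotides, at 0.66. After the scaling 0 fell in RM9 at 12 h, and in MC38 3 rose and 4 fell at 12 h and 2 rose and 3 fell at 24 h. Of all genes, 9.98% and 8.2% were then called lower in MC38 at 12 h and 24 h. Rrm2b, the p53-inducible partner of Rrm1, rose in MC38 at 12 h (0.68, adjusted p = 0.0146) and did not pass in RM9 at 3 h (0.47, adjusted p = 0.182).

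Of 25 E2F and G1 to S regulators, 1 rose in RM9 at 3 h (background 0.2%), the retinoblastoma gene Rb1, which restrains E2F (0.86, adjusted p = 0.0277). At 12 h 2 fell there (background 8.3%), E2f4 (-0.34) and Ccne1 (-0.50, adjusted p = 0.0359). In MC38 11 rose at 12 h (background 28.5%), with Mybl2, E2f3 and Skp2 at the smallest p, and 6 at 24 h (background 13.2%). After the scaling 2 and 6 did (background 6.27% and 7.79%), while 0 fell in RM9 at 12 h. In MC38 at 24 h Ccne1, cyclin E1, rose by 1.00 (adjusted p = 0.00683), Mybl2 by 0.69 (adjusted p = 0.00496) and E2f1, an activating E2F, by 0.66 (adjusted p = 0.00825). All 3 also passed after median-ratio scaling. Ccne2 passed at no time in either tumor (-0.064 in MC38 at 24 h, adjusted p = 0.791).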

How the data were processed

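Total RNA from 31 tumors was sequenced by the authors as stranded, single-end mRNA libraries with 75-base reads. The submitters' notes name bcl2fastq 2.17 and GRCm39, while the deposited coordinates match GRCm38: against GENCODE M21, 41 of 41 members lay on the same chromosome, 33 had both ends in common, 36 at least 1 and 5 neither. The aligner and abundance program are not given in the sources used here. The authors deposited coverage, FPKM and TPM per gene: TPM is the deposited unit used for levels and tests, and the deposited coverage and FPKM served to derive depth. Rows that repeated a gene ID were summed. Poly(A) selection and TPM make every value a share of the RNA captured.

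The members and all lists were chosen with earlier results of these data known. Each tumor model was fitted on its own with limma (version 3.58.1, R 4.3.3, eBayes with trend) on log2(TPM + 0.5) over its 4 groups, keeping 14013 genes in RM9 and 15698 in MC38 whose average reached 0.5 TPM, and each contrast was adjusted by Benjamini-Hochberg over all genes with a threshold of 0.05. Log2 changes are on the log2(TPM + 0.5) scale, which understates changes of low genes. The difference between tumors was a contrast in a fit of 8 groups over 15358 genes. Mice are taken as replicates because the labels number them as separate animals. Genes were named by a fixed rule: 19 role examples with values per library, the 4 largest calls in each direction, or the 2 largest values where none passed, 3 genes with the smallest p from each other list, and Rrm2b, Ccne1, Ccne2, E2f1, Cdkn1a and Mki67, and 1 gene of that rule is not reported here. Alternatives were pseudocounts of 0.1 and 1, no filter or a minimum mean of 5 TPM, median-ratio scaling, TPM without mitochondrial genes, fits of 2 groups, a replicate block, Dunnett's comparisons, which the study's methods use for single genes, and leaving out each mouse. The scripts were tested on simulated data. Promoters came from RefSeq on GRCm38.p6.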

Additional observations from a re-analysis of the deposited data

Results flagged for a closer look

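Among 294 groups of 4 libraries, 7 groups for each of the 41 members and for their mean level, 17 held a value set apart from the other 3 by Dixon's criterion, and chance sets apart about 1 in 20. In MC38 control mouse 1 the values of Gins1 (34.8 TPM, against 44.6 to 45.95), Rfc4 (25.001 TPM, against 35.4 to 36.8) and Fen1 (37.01 TPM, against 50.2 to 52.5) were low, and this is the library with the most muscle and mitochondrial RNA of its tumor model. MC38 24 h mouse 1 was low for Rfc5 (38.5 TPM, against 49.8 to 51.9), Prim1 (35.4 TPM, against 53.4 to 54.4) and Chaf1a (42.3 TPM, against 48.7 to 49.1), and high for Uhrf1 (101 TPM, against 85.9 to 86.8). At 12 h in MC38, mouse 2 was high for Cdt1 (125 TPM, against 112 to 114) and Lig1 (89.1 TPM, against 67.8 to 70.5), and mouse 1 low for Orc1 (21.01 TPM, against 22.5). At 3 h in MC38, mouse 4 was high for Mcm6 (155 TPM, against 138 to 141), mouse 3 low for Gins2 (19.1 TPM, against 42.5 to 46.6) and mouse 2 low for Gins4 (49.4 TPM, against 55.7 to 55.96). In RM9, control mouse 4 was high for Cdc6 (3.83 TPM, against 2.70 to 2.88) and Mcm7 (61.8 TPM, against 51.1 to 52.6), 3 h mouse 3 low for Mcm6 (52.02 TPM, against 71.2 to 73.3), and 12 h mouse 1 low for Tk1 (18.3 TPM, against 23.5 to 24.4).

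The change after RT differed between MC38 and RM9 by limma's contrast of the changes for 36 members at 12 h (44.9% of all genes were called in that direction) and 10 at 24 h (1.81%), each with the more positive change in MC38. After median-ratio scaling 8 passed at 12 h and 10 at 24 h, and leaving out each mouse gave 0 to 21 at 24 h.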

How the results depend on the processing

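The counts of falls in RM9 at 12 h and of rises in MC38 at 12 h changed with the scaling and with single mice, and that of rises in MC38 at 24 h with single mice and with fits of 2 groups. Median-ratio scaling gave 0 falls in RM9 at 12 h, 2 rises in MC38 at 3 h, 4 rises and 2 falls at 12 h, 1 fall at 24 h, 10 members higher at 24 h than at 12 h, and 8 that differed between tumors at 12 h, with Gins1 at -0.063 there in place of a rise. It moved the member level to -0.25 (RM9 12 h) and 0.033 (MC38 12 h). Added after seeing the data, the same scaling without MC38 control mouse 1 gave 0 rises in MC38 at 3 h, 3 rises and 1 fall at 12 h, 13 rises and 1 fall at 24 h, 10 members higher at 24 h than at 12 h, and 5 and 2 members that differed between tumors at 12 h and 24 h, with Gins1 at -0.027 at 12 h. Of all 15691 genes, 348 and 896 then rose and 712 and 860 fell in MC38 at 12 h and 24 h, and 631 were higher at 24 h than at 12 h. Between tumors, 86 and 99 of all 15328 genes had the more positive change in MC38 at 12 h and 24 h. Without mitochondrial genes there were 4 falls in RM9 at 12 h, 7 rises in MC38 at 3 h, 1 fall at 24 h and 5 members higher at 24 h than at 12 h. Over all genes in those fits, 69 of 15329 fell in RM9 at 12 h. In MC38 118 of 16289 rose at 3 h, 450 fell at 24 h and 415 were higher at 24 h than at 12 h. Dunnett's comparisons called 1 member higher in RM9 at 3 h and 24 in MC38 at 3 h. Fits of 2 groups called 3 rises in MC38 at 12 h, 3 at 24 h and 1 member between 12 h and 24 h, which a pseudocount of 1 also gave. Of the 10 members that differed between tumors at 24 h, 6 passed with a pseudocount of 0.1, 5 without the filter and 5 with the replicate block. Leaving out each mouse gave 0 to 20 falls in RM9 at 12 h, 0 to 12, 9 to 30 and 13 to 25 rises in MC38 at 3, 12 and 24 h, 0 to 1 falls at 24 h, 0 to 5 higher at 24 h than at 12 h, and 33 to 39 and 0 to 21 that differed between tumors at 12 h and 24 h. In the last, 3 passed without MC38 RT 24 h mouse 4, MC38 control mouse 4 or RM9 control mouse 1, 4 without MC38 RT 24 h mouse 2 or RM9 RT 24 h mouse 3, 6 without MC38 RT 24 h mouse 3 or RM9 RT 12 h mouse 4, and 21 without MC38 control mouse 3. In MC38 at 3 h 12 rose without control mouse 3, and between 12 h and 24 h 5 without control mouse 1. Shares of all genes are not given for fits of 2 groups or for as-deposited fits without 1 mouse, so those counts carry no background. Over 104 called member values and their alternatives, 2777 kept direction and side of the threshold, 539 lost the call and 2 reversed. That total pools many fits that left out 1 mouse, and the split differed by setting. Median-ratio scaling kept 38 of the 104 calls, lost 65 and reversed 1. Fits of 2 groups kept 18 and lost 40. The cause of these changes was not tested.

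Mouse numbers did not pair the samples: correlations of same-numbered deviations ran from -0.39 to 0.32 in RM9 and -0.48 to 0.55 in MC38, and 3 of 15 and 4 of 16 libraries correlated best with their own number. Apart from the 5 members above, the replicate block moved no count of calls by over 1.5 times. Depth was 21.4 to 29.4 M reads per library, and its part in the spread of low genes such as Orc1 in RM9 was not tested.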

Other observations

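Genes of mitosis were counted in the same fits as the 41 replication genes. Of 25 G2 and mitosis genes, 0 passed in limma at 3 h in RM9, where 12 had an unadjusted p under 0.05 (background 21.8%) and the median log2 change was -0.29. In MC38 at 3 h 0 passed, 11 had an unadjusted p under 0.05 (background 19.9%) and the median was -0.40. After median-ratio scaling 13 fell in RM9 and 6 in MC38 at 3 h, against 1.21% and 0.357% of all genes, with medians of -0.35 and -0.60, while the median of the 41 replication genes after that scaling was -0.10 and 0.18. At 24 h 9 of the 25 rose in MC38 (background 13.2%), and 7 after the scaling (background 7.79%), with Kif20a, Ube2c and Ccnb2 as deposited at 0.91, 0.88 and 0.67. Mki67, a proliferation marker, rose in MC38 at 12 h (0.64, adjusted p = 0.0390) and did not pass after median-ratio scaling (0.29, adjusted p = 0.223).

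Of 22 targets of p53, 8 rose in RM9 at 3 h and 4 at 12 h, where 0.2% and 0.0714% of all genes did, and 3, 10 and 6 in MC38 at 3, 12 and 24 h, where 0.051%, 28.5% and 13.2% did. After the scaling 12 and 2 rose in RM9 and 3, 4 and 4 in MC38, where 1 fell at 12 h and 2 at 24 h. Of all genes, 1.69% then rose in RM9 at 3 h, and 10 of 14013 at 12 h. In MC38 0.274%, 6.27% and 7.79% rose at 3, 12 and 24 h, and 9.98% and 8.2% fell at 12 h and 24 h. Cdkn1a, which blocks cyclin-dependent kinases, rose by 0.96 in RM9 at 3 h (adjusted p = 0.0106) and by 0.73 in MC38 at 24 h (adjusted p = 0.00143). Mdm2, which targets p53 for degradation, stood at 644 ± 193 TPM (SD, n = 4) in RM9 controls and at 15.6 ± 3.22 TPM in MC38 controls, and rose at 3 h in each (1.27 and 1.11).

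The 41 genes tended to be low together in single libraries, and this was not particular to them. TPM values are shares of 1 total, so the members' values and the mitochondrial share are not independent. In 6 of the 8 groups the library with the lowest value for the most members was also the one with the highest mitochondrial share, as in RM9 3 h mouse 3 (41 of 41 members, 51.6% of TPM), RM9 24 h mouse 1 (38 members, 54.3%) and MC38 control mouse 1 (40 members, 40.6%). MC38 24 h mouse 1 was the lowest of its group for 26 members, Tk1 (62.1 TPM) and Dut (89.9 TPM) among them, yet held the highest value for Mcm2 (138 TPM), Mcm3 (169.9 TPM) and Mcm6 (203 TPM).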
